A study of Mus musculus with 11 samples.

Results

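The genes described here are 35 genes of cholesterol and fatty acid synthesis, out of 21957 genes with coding-sequence counts in mouse CD8 T cells. They were chosen by symbol, with no measured value in the rule, and were kept in 3 branches: 18 enzymes of the sterol pathway, 6 genes of sterol sensing and transport, and 11 enzymes of fatty acid synthesis, desaturation and elongation. The cells were primed OT1 cells, CD8 T cells whose transgenic receptor recognises an ovalbumin peptide, and the labels name no other allele. Stimulated cells (labelled 2hr) met beads carrying antibodies to CD3 and CD28 for 2 h. Unstimulated cells (labelled T0) met none: their label gives time 0 while the protocol speaks of 2 h of rest, and which applies is not settled by the labels. All groups then received cycloheximide, which stalls ribosomes, for 10 min. RNA was counted in 3 libraries of each group. Ribosome footprints, which are stretches of mRNA shielded by ribosomes at work, were counted in 3 libraries of resting and 2 of activated cells. The series design asks how mRNA and its translation differ before and after activation of memory CD8 cells. A stimulated footprint replicate 1 was not analysed here. The labels do not say whether replicates came from separate cultures or mice, nor how many mice were pooled, so p-values measure only the spread between these samples, which may be technical.

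Animal cells build cholesterol from acetyl-CoA through mevalonate, the isoprenoids and squalene, and build fatty acids from acetyl-CoA through malonyl-CoA. Both routes are controlled by the sterol regulatory element binding proteins, encoded by Srebf1 and Srebf2. These membrane-bound transcription factors travel with SCAP from the endoplasmic reticulum to the Golgi, where they are cleaved, unless sterols make INSIG proteins hold the complex back. T cells raise these routes when they grow and divide after activation, since new membrane needs sterols and phospholipids.

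Promoters of 28 of the 35 genes were matched in RefSeq (GRCm38.p6). Sterol-responsive promoters are known to combine a sterol regulatory element with sites for NF-Y and Sp1, so the 250 bases before each start were searched on both strands for TCACNCCAC (sterol regulatory element), CCAAT (NF-Y) and GGGCGG (Sp1). Matches were counted also where they overlapped one another. The start is that of the promoter table, which for Fasn, Hsd17b7 and Mvk lies inside the gene's annotated span, so that the window printed for Fasn is wholly, and those of Hsd17b7 and Mvk are partly, within the span. Of the promoters, 4 are printed, 5′ to 3′ on the gene's strand, with the sterol regulatory element and each CCAAT or its complement ATTGG in capitals. Hmgcs1 (chr13:119690101-119690350, plus strand) is shown because it alone of the 28 held TCACNCCAC, Mvk (chr5:114444019-114444268, plus strand) because it held the most CCAAT matches, and Hsd17b7 (chr1:169969206-169969455, minus strand) and Fasn (chr11:120824548-120824797, minus strand) because they held 3 CCAAT matches each and were among the genes with more RNA after stimulation in the fit on abundant genes described later.
Hmgcs1: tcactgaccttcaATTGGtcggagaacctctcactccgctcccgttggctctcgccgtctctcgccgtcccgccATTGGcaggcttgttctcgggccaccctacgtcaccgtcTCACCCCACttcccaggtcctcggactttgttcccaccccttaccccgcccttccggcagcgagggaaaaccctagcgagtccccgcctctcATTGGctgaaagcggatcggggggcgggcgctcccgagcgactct
Mvk: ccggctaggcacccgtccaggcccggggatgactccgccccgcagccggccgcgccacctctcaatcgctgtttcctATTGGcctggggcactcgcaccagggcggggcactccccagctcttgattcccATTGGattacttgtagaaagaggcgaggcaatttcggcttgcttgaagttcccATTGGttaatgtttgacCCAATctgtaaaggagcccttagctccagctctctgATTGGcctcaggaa
Hsd17b7: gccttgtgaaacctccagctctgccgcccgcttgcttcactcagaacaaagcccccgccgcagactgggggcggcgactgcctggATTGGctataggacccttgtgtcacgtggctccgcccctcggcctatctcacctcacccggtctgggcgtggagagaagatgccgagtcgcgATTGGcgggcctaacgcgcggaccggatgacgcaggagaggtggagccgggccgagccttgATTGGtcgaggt
Fasn: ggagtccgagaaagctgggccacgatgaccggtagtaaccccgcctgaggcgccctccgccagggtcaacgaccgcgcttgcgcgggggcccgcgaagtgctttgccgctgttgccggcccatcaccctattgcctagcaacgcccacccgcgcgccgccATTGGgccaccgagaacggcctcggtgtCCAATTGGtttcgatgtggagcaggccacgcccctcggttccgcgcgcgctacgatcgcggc
The sterol regulatory element of Hmgcs1, synthase of the mevalonate precursor HMG-CoA, began 137 bases before the start. Mvk, mevalonate kinase, held 5 CCAAT matches, and the other 3 promoters held 3 each, of which a pair in Fasn overlapped.

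CCAAT was found in 21 of the 28 promoters (75.0%), against 34.5% of the 27025 genes with a promoter in the RefSeq table, 1 promoter a gene, and GGGCGG in 20 (71.4%), against 33.0%. TCACNCCAC was found in 1 of 28 (3.57%), against 1.03%. The compared genes were not limited to those expressed in these cells, and shares among expressed genes were not taken. Among the 15 matched sterol enzymes, 13 held CCAAT and 14 held GGGCGG, and among the 8 matched fatty acid enzymes 4 held each. Of the 5 matched genes with more RNA after stimulation in the fit on abundant genes, 5 held CCAAT, and of the 12 matched with less RNA, 8 did. Of the 7 matched that were tested there and did not pass, 5 held it. These are matches of letters, with no measurement of binding.

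The libraries differed in ways that touch the RNA results. RNA totals were 21658263 to 39346699 counts and footprint totals 11136 to 23641, 85433 in all. The 4 genes Gm10800, Gm10801, Gm20594 and Lars2 held 4.09, 14.9 and 5.14% of the unstimulated RNA counts and 25, 22.5 and 12.8% of the stimulated ones, in replicate order. Counts over 1519 olfactory, vomeronasal and defensin genes, which T cells are not known to use, summed to 300.1, 1885 and 406.7 CPM (counts relative to the library total, without TMM scaling) in unstimulated and 2758, 2030 and 685.8 CPM in stimulated libraries. The median log2 change of the 1263 of these genes that were tested was 1.25, and that of all 18886 genes tested was 0.391. Both measures tended to be higher in stimulated libraries but overlapped between the groups, with unstimulated replicate 2 above stimulated replicate 3. Their part in the RNA results was not tested. RNA results come from 2 fits, the one over all genes that pass edgeR's filter on low counts, which is the main result, and, where named, one over 8494 genes of at least 10 CPM, scaled on those genes, whose median log2 change was 0.00367. The 5 T cell markers summed to 1615 to 1866 CPM unstimulated and 1143 to 1827 CPM stimulated. Here and below, RNA levels are in CPM after TMM scaling of the library size unless another scale is named. Sums of the 5 B cell markers (4.63 to 11.2 CPM), the 5 macrophage markers (2.41 to 8.03 CPM), the 3 adipocyte markers (0.544 to 3.44 CPM) and the 4 hepatocyte markers (0.709 to 8.61 CPM) were low. In each of these 4 lists the sums were highest in the 3 libraries with the most background. CD4 T cell, dendritic cell and NK cell markers summed to 11.8 to 12.2, 18.8 to 23.4 and 0.733 to 1.29 CPM unstimulated and to 18.9 to 24.8, 30.1 to 34.2 and 1.67 to 2.3 CPM stimulated. In the CD4 list the largest rise in CPM was that of Cd40lg (mean 8.34 to 17.6 CPM). There Cd4 had 1.36 and 2.49 CPM, and Foxp3 2.26 and 2.33 CPM. In the dendritic list it was that of Cd74 (9.07 to 18.1 CPM). There Flt3 had 1.23 and 2.59 CPM, Xcr1 3.19 and 4.13, Itgax 5.74 and 5.52, and H2-Ab1 1.83 and 1.93. The part of other cell types in the results was not tested.

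In RNA, no member rose and 4 fell after stimulation in the fit over all genes, by edgeR's quasi-likelihood test at an adjusted p under 0.05. The 4 were Fads1, Acss2, Fdft1 and Mvk. At an unadjusted p under 0.05 there were 13 lower and 1 higher. The shares of all genes at that unadjusted threshold were not taken, so these counts have no background to be read against. The count of lower members rested on single libraries. It was 25 without unstimulated replicate 2 and 23 without stimulated replicate 3. There 6173 of 19219 and 4271 of 19468 of all genes were lower, so the count over all genes moved as well. The member count was 1 without unstimulated replicate 1, unstimulated replicate 3 or stimulated replicate 2. In these cases 478 of 19492, 344 of 19487 and 301 of 19142 of all genes were lower. In the last 3 cases Fads1 kept its call, and the adjusted p of the other 3 genes was 0.0583 to 0.3 by edgeR. Fdft1 also lost its call without stimulated replicate 1 (adjusted p = 0.154). Leaving out the 3 libraries with the most background leaves stimulated replicate 3 as the lone library of its group. Leaving out the 3 with the least leaves unstimulated replicate 2 alone. The lone library is assumed to vary like the other group's, so counts of calls over all genes are not given for these sets. The median log2 change of all genes was 0.0611 and 0.118 there. Over all 18886 genes tested, 3.58% passed as higher and 4.67% as lower, 8.25% in either direction, while 4 of 35 members (11.4%) passed as lower. In such bulk samples fewer cells of a type and less RNA per cell cannot be told apart. The median log2 change of the members was -0.28, and 33 of the 35 lay below the median of all genes (0.391). So did 76 of the 96 other lipid genes described later. The tested background genes, with a median of 1.25, count toward that all-gene median. In the fit on genes of at least 10 CPM the medians were -0.211 for the members and 0.00367 for all genes. In the fit over all genes, the 3 stimulated libraries were all below the 3 unstimulated ones for 10 members, against 13.6% of all genes. They were all above for 2, against 15.4%.

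In the fit on genes of at least 10 CPM, 30 members were tested, and 6 passed as higher and 17 as lower. That fit calls most genes, 36.9% as higher and 36.4% as lower (73.3% in either direction), so the count of higher members lies below the background and the count of lower members above it. Its 5 untested members, all below the level limit, were Mvk, Mvd, Tm7sf2, Scd1 and Fads2. The higher members were Fasn, Sqle, Hsd17b7, Idi1, Elovl1 and Insig1, of which Idi1, Elovl1 and Insig1 lay below 0 with RLE scaling or DESeq2 over all genes, and Hsd17b7 with DESeq2, none of them called there. Groups did not overlap for 18 lower and 6 higher members, against 38.1% and 38% of all genes in that fit. The plot of levels by library shows how close the replicates were on this scale.

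**Figure D1:**
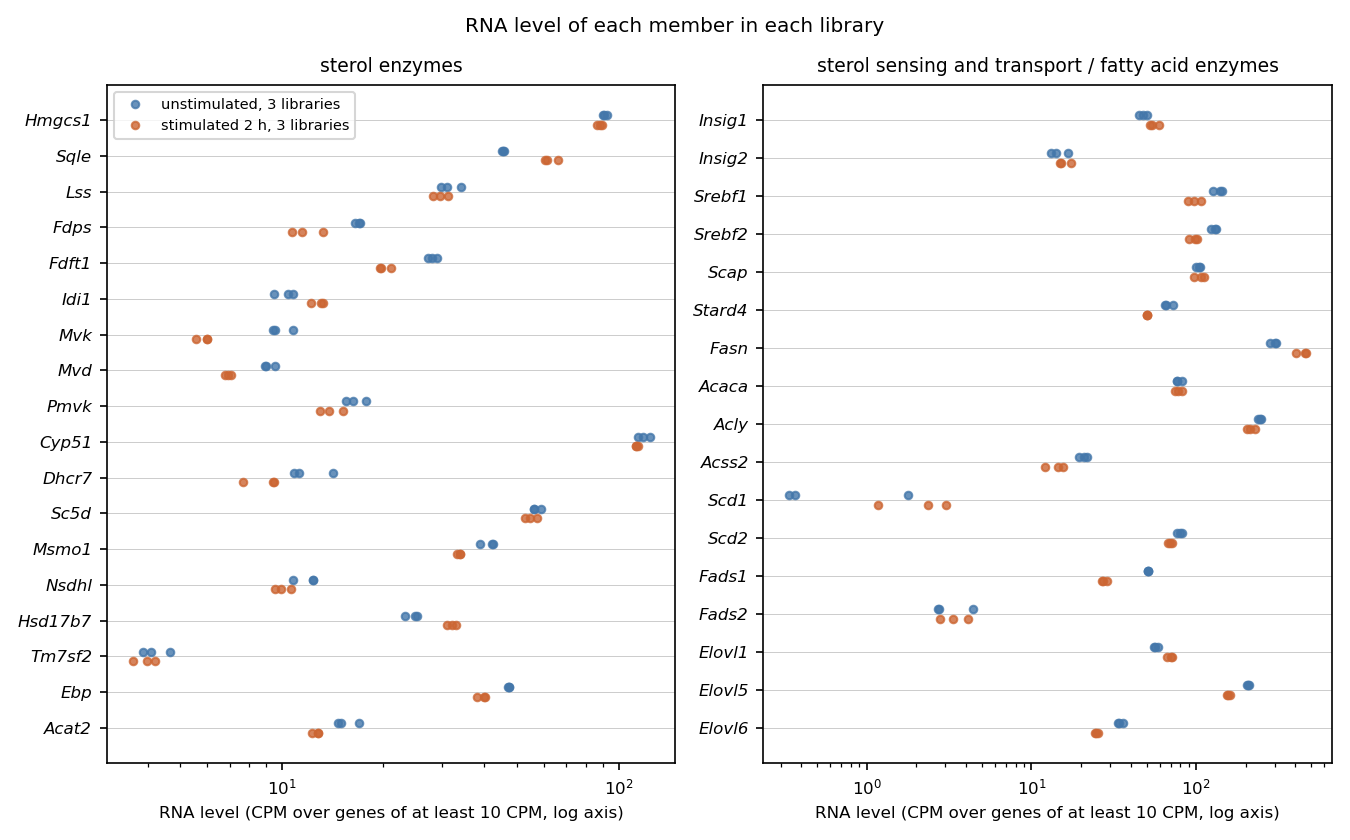
RNA level of each of the 35 members in the 3 unstimulated (blue) and 3 stimulated (orange) libraries, in CPM scaled on genes of at least 10 CPM (horizontal log axis), sterol enzymes on the left and the other branches on the right; each point is 1 library. Fads1 is separated furthest to the left after stimulation (means 51.0 and 27.6 CPM), while Fasn (296.9 and 443.7 CPM) and Sqle (45.5 and 62.7 CPM) sit to the right.

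The mevalonate part of the sterol route held 1 member that fell in the fit over all genes. Mvk (chromosome 5, 114444264 to 114460591, on GRCm38 as are all gene positions), which phosphorylates mevalonate, had 9.91, 9.19 and 11.2 CPM unstimulated and 4.81, 4.94 and 7.03 CPM stimulated. The groups did not overlap, and the log2 change was -0.85 ± 0.23 (SE, adjusted p = 0.0464). Hmgcs1, whose product feeds the mevalonate step, had 94.3, 89.1 and 94.1 CPM unstimulated and 71.7, 78.3 and 101.8 CPM stimulated. Stimulated replicate 3 lay above and the other stimulated libraries below the unstimulated ones, and the log2 change of -0.14 ± 0.18 did not pass (adjusted p = 0.57). On the scale of abundant genes its level was 90.8 ± 1.39 CPM unstimulated and 88.1 ± 1.5 CPM stimulated (SD, n = 3 each), with a log2 change of -0.04 ± 0.03 (adjusted p = 0.229). The other early genes, Mvd, Pmvk, Acat2, Idi1 and Fdps, which carry acetyl-CoA and mevalonate to farnesyl diphosphate, did not pass in the fit over all genes, with log2 changes of -0.59 to 0.22. Among abundant genes Fdps fell by 0.51 ± 0.09, Acat2 by 0.30 ± 0.08 and Pmvk by 0.23 ± 0.08 on the log2 scale, and Idi1, the isopentenyl diphosphate isomerase, rose by 0.32 ± 0.08. Pmvk lost this call in 5 of the 11 alternatives of that fit, without unstimulated replicate 2 or 3, without stimulated replicate 1 or 2, and without the 3 libraries with the most background (adjusted p of up to 0.47). Acat2 and Idi1 lost it in 1 each, a set with a lone library in a group (adjusted p = 0.179 and 0.0726).

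Fdft1 (chromosome 14, 63145150 to 63181687), squalene synthase and the first enzyme committed to sterols, had 30.5, 27.1 and 28.2 CPM unstimulated and 17, 17.4 and 23.2 CPM stimulated. Every stimulated library was below every unstimulated one, and the log2 change was -0.58 ± 0.16 (adjusted p = 0.0429). Its span overlaps that of Ctsb, which had 22490 RNA counts over all libraries, and the counting's use of strand is not stated. Among abundant genes Fdft1 fell by 0.48 ± 0.06 (adjusted p = 3.91e-05). Sqle, squalene epoxidase, went the other way, with 48.1, 43.8 and 47.1 CPM unstimulated and 48.5, 54.4 and 77.9 CPM stimulated. Its groups were apart by little, and the log2 change of 0.38 ± 0.19 did not pass (adjusted p = 0.283). Among abundant genes Sqle rose by 0.47 ± 0.04 (adjusted p = 1.04e-05), with 45.7, 45.4 and 45.2 CPM unstimulated and 60.6, 61.3 and 66.3 CPM stimulated. Fdft1 and Sqle, which act one after the other, thus differed in sign on both scales.

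Of the later sterol enzymes, which turn lanosterol into cholesterol, none passed in the fit over all genes. Cyp51, the lanosterol demethylase, had 130.0, 110.1 and 123.3 CPM unstimulated and 90.2, 99.9 and 134.4 CPM stimulated, overlapping groups with a log2 change of -0.16 ± 0.19. Sc5d, a sterol desaturase, had 59.0, 56.8 and 58.4 CPM unstimulated and 46.0, 47.0 and 64.0 CPM stimulated, also overlapping, with a log2 change of -0.15 ± 0.17. Ebp, a sterol isomerase, had 49.6, 45.4 and 49.4 CPM unstimulated and 31.9, 33.8 and 47.2 CPM stimulated, with a log2 change of -0.36 ± 0.18 (adjusted p = 0.277). In all 3 genes stimulated replicate 3 stood above the other stimulated libraries. That library gave the highest stimulated level in 33 of the 35 members on this scale, and in 16 of 35 on the scale of abundant genes. There Ebp fell by 0.26 ± 0.04 and Msmo1, a methylsterol oxidase, by 0.29 ± 0.05 on the log2 scale. Dhcr7, which makes cholesterol from its last precursor in one arm of the route, fell by 0.45 ± 0.13 and Nsdhl, a sterol dehydrogenase, by 0.24 ± 0.09. Nsdhl lost its call in 4 of 10 alternatives, without unstimulated replicate 1 or 2 and without stimulated replicate 2 or 3 (adjusted p of up to 0.114), and Msmo1 in 1 of 11, a set with a lone library in a group (adjusted p = 0.0552). Hsd17b7, a ketosteroid reductase of the same stretch, rose by 0.39 ± 0.05 (24.4 ± 1.05 to 32.0 ± 0.995 CPM, SD, n = 3 each). Lss, Cyp51, Sc5d and Hmgcs1 did not pass there. In sum over that fit, 8 of 15 tested sterol enzymes passed as lower and 3 as higher, where 36.4% and 36.9% of all genes did. The other 4 did not pass. Tm7sf2, a sterol reductase whose span overlaps Vps51, had 3.18 to 4.5 CPM over the 6 libraries and did not pass.

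**Figure D2:**
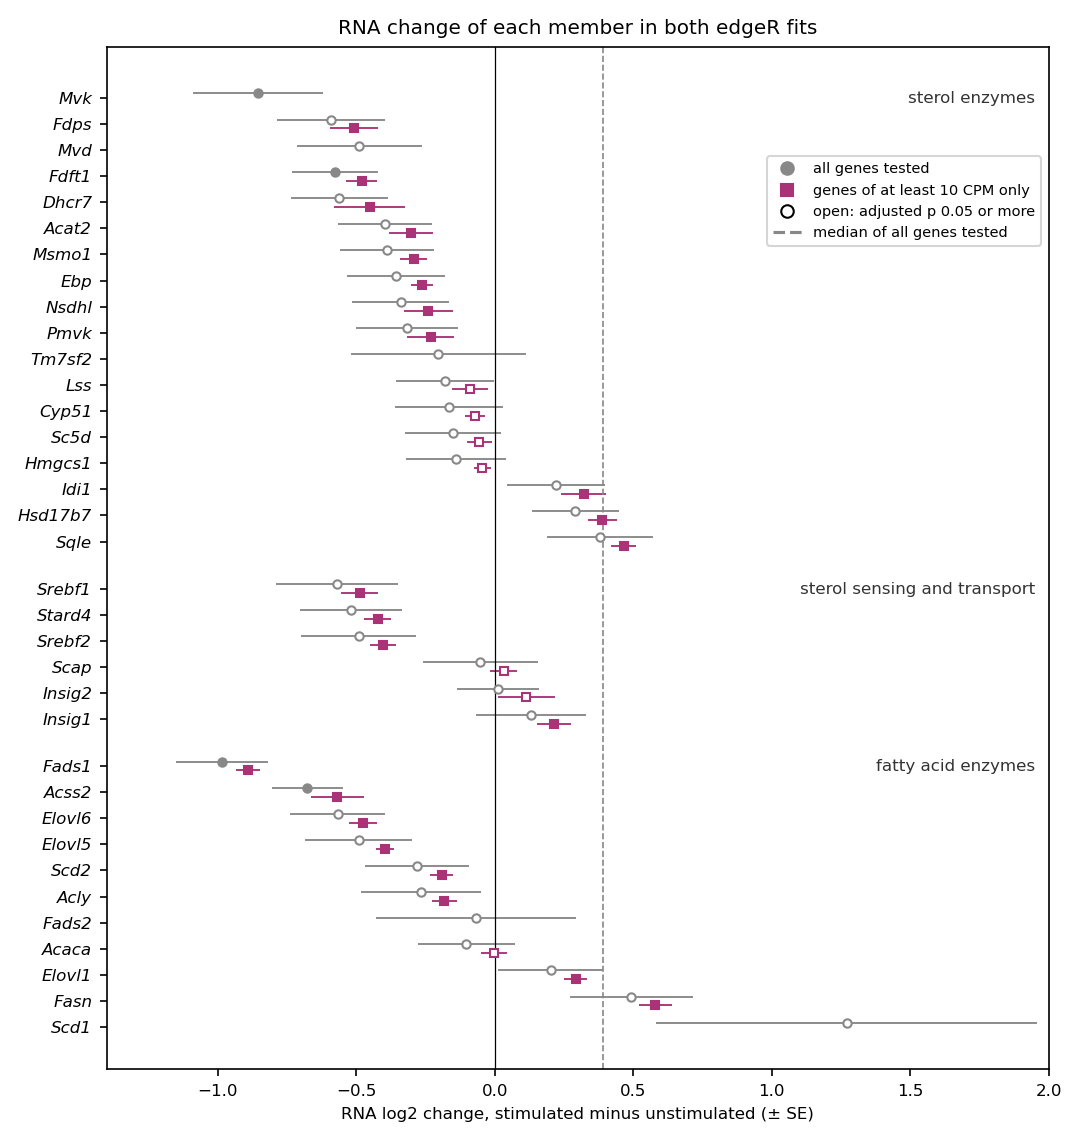
RNA log2 change of each member, stimulated minus unstimulated, with its standard error, from the fit over all genes (grey circles) and from the fit on genes of at least 10 CPM (purple squares); filled symbols passed at an adjusted p under 0.05, and the dashed line is the median of all genes in the first fit, 0.391. Fads1, Acss2, Fdft1 and Mvk are the filled circles, and the standard errors are shorter in the second fit.

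None of the 6 genes of sterol sensing and transport passed in the fit over all genes. Srebf1 had 147.4, 123.2 and 149.5 CPM unstimulated and 71.4, 86.4 and 125.3 CPM stimulated. Its groups overlapped in 1 pair of libraries, and the log2 change was -0.57 ± 0.22 (adjusted p = 0.162). Srebf2 had 138.8, 119.1 and 136.2 CPM unstimulated and 72.9, 88.0 and 119.5 CPM stimulated, again overlapping through stimulated replicate 3, with a log2 change of -0.49 ± 0.21 (adjusted p = 0.2). Among abundant genes both factors fell, Srebf1 by 0.49 ± 0.07 (adjusted p = 0.000105) and Srebf2 by 0.40 ± 0.05 (adjusted p = 3.47e-05) on the log2 scale. Srebf1 overlaps Rai1 in span, and these counts do not separate the transcript forms of Srebf1.

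No test compared these factors with the proteins that escort or hold them. Scap, the escort, had 108.9, 96.2 and 110.8 CPM unstimulated and 78.2, 95 and 131.3 CPM stimulated, with overlapping groups and a log2 change of -0.05 ± 0.21. Among abundant genes its log2 change was 0.03 ± 0.05 (adjusted p = 0.567). Insig1, a retention protein whose gene is itself a target of the factors, had 50.1, 43.5 and 52.7 CPM unstimulated and 43.4, 46.5 and 70.3 CPM stimulated, overlapping, with a log2 change of 0.13 ± 0.20. Among abundant genes it rose by 0.22 ± 0.06 (adjusted p = 0.0101), and the sign of its change turned under several other scalings. Insig2, the second retention protein, had 13.8, 16.0 and 14.7 CPM unstimulated and 14.0, 13.5 and 17.5 CPM stimulated, with a log2 change of 0.01 ± 0.15 whose sign also turned, and of 0.11 ± 0.10 among abundant genes (adjusted p = 0.338). Stard4, which carries sterol between membranes, had 76.1, 62.4 and 68.2 CPM unstimulated and 40.6, 44.5 and 59.3 CPM stimulated. These groups did not overlap, yet the log2 change of -0.52 ± 0.18 did not pass (adjusted p = 0.12). Among abundant genes Stard4 fell by 0.42 ± 0.05 (adjusted p = 4.3e-05).

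Fatty acid enzymes held the largest decrease of the 35 genes and, among the genes of at least 10 CPM, the largest increase. Fads1 (chromosome 19, 10182877 to 10196874), a desaturase of polyunsaturated fatty acids, had 53.3, 49.5 and 53.1 CPM unstimulated and 23.0, 23.8 and 31.9 CPM stimulated. All stimulated libraries were far below all unstimulated ones, and the log2 change was -0.99 ± 0.17 (adjusted p = 0.0045). It was the only member whose call held in all 19 alternative settings tried, with log2 changes of -1.31 to -0.89. Acss2 (chromosome 2, 155518043 to 155562743), which makes acetyl-CoA from acetate, had 20.3, 20.9 and 21.8 CPM unstimulated and 12.5, 12.8 and 14.2 CPM stimulated. Its groups were well apart, with a log2 change of -0.68 ± 0.13 (adjusted p = 0.00779). In the fit on abundant genes Fads1 fell by 0.89 ± 0.04 and Acss2 by 0.57 ± 0.10 on the log2 scale.

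Fasn (chromosome 11, 120805958 to 120825166), the synthase that builds palmitate, had 315.0, 272.8 and 320.8 CPM unstimulated and 322.6, 414.3 and 542.7 CPM stimulated. All stimulated libraries were above the unstimulated ones, replicate 1 by the least, and the log2 change was 0.49 ± 0.22 (adjusted p = 0.236), which did not pass. Among abundant genes Fasn rose by 0.58 ± 0.06 (adjusted p = 1.46e-05), with 299.7, 282.8 and 308.1 CPM unstimulated and 402.9, 466.6 and 461.7 CPM stimulated. The enzymes that supply its substrates did not share this rise. Acly, which cleaves citrate to acetyl-CoA, had 261.5, 230.4 and 256.1 CPM unstimulated and 163.6, 188.7 and 269.9 CPM stimulated, with a log2 change of -0.27 ± 0.22, and fell by 0.18 ± 0.05 among abundant genes. Acaca, the carboxylase that makes malonyl-CoA, had 80.4, 78.8 and 79.9 CPM unstimulated and 61.8, 73.0 and 87.8 CPM stimulated, with a log2 change of -0.10 ± 0.17. Among abundant genes the log2 change of Acaca was -0.0035 ± 0.046 (adjusted p = 0.951). Acaca overlaps Tada2a and Gm11437 in span, which had 2315 and 114 RNA counts.

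Desaturases and elongases divided as well. Elovl5, an elongase of polyunsaturated fatty acids, had 219.4, 198.6 and 211.4 CPM unstimulated and 128.4, 136.4 and 183.2 CPM stimulated. Its groups did not overlap, and the log2 change of -0.49 ± 0.19 did not pass (adjusted p = 0.169). Scd2, a desaturase of saturated fatty acids, had 84.0, 79.3 and 79.6 CPM unstimulated and 55.4, 60.4 and 84.0 CPM stimulated, with a log2 change of -0.28 ± 0.19. Among abundant genes Elovl5 fell by 0.39 ± 0.03, Scd2 by 0.19 ± 0.04 and Elovl6, which lengthens saturated chains, by 0.48 ± 0.05 on the log2 scale. Elovl1, an elongase of very long chains whose span overlaps Cdc20, rose there by 0.29 ± 0.04. Thus 6 of 9 tested fatty acid enzymes passed as lower and 2 as higher, where 36.4% and 36.9% of all genes did. Acaca did not pass. Scd1 had 0.355, 1.72 and 0.382 CPM unstimulated and 2.43, 2.09 and 1.37 CPM stimulated, the same order of libraries as the background counts, and its log2 change of 1.27 ± 0.69 did not pass. Fads2, the desaturase that acts before Fads1 in the same route, had 2.86 to 4.27 CPM and did not pass. Reads shared between Scd1, Scd2 and their copies were handled in a way not stated, so their separate values are uncertain.

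Summed over each branch, sterol enzymes held 0.0638 ± 0.00421% of all RNA counts unstimulated and 0.0499 ± 0.00441% stimulated (SD, n = 3 each), a log2 ratio of -0.35. Sensing and transport genes held 0.054 ± 0.00559% and 0.0377 ± 0.00513%, a log2 ratio of -0.52, and fatty acid enzymes 0.116 ± 0.00867% and 0.0986 ± 0.0111%, a log2 ratio of -0.23. The fatty acid groups overlapped, with 0.1059% in unstimulated replicate 2 and 0.1105% in stimulated replicate 3. Without the 4 genes that took up to 25% of a library, the ratios were -0.15, -0.32 and -0.03. The fatty acid sum then lay at 0.126 ± 0.00137% and 0.123 ± 0.00461%, with groups that still overlapped, while the sterol groups stayed apart (0.0689 to 0.0699% and 0.0613 to 0.0631%). With TMM sizes the sterol ratio was -0.17, the sensing ratio -0.33 and the fatty acid ratio -0.05, and the groups of all 3 branches overlapped.

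**Figure D3:**
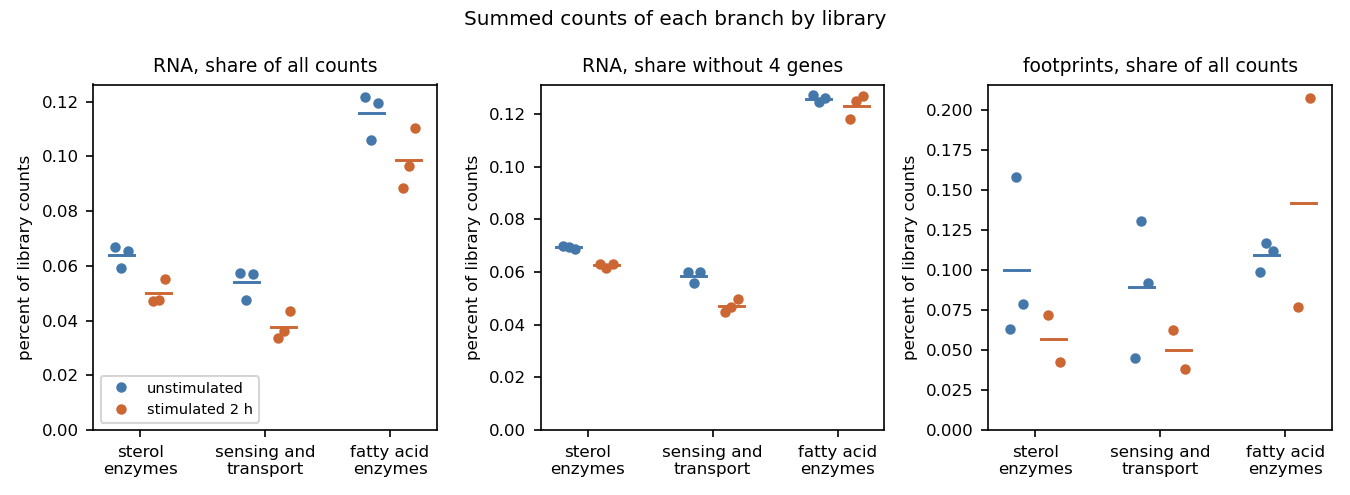
Summed counts of each branch as a percent of library counts, for RNA over all counts, RNA without 4 highly counted genes, and footprints; points are libraries (blue unstimulated, orange stimulated) and bars are group means. Over all counts and without the 4 genes, the RNA groups separate for the sterol and the sensing branches and overlap for the fatty acid branch. A single stimulated library stands at 0.207% for fatty acid footprints.

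Footprints were too few to test single members. Of 256 genes that passed edgeR's filter in footprints, 24 (9.38%) were called, and of 255 tested for translational efficiency (footprints relative to RNA, the interaction of assay and stimulation) 0% were. No member was among either set, so the counts of 0 members in both say nothing on their translation. The members held 237 footprints together, 67 in sterol enzymes, 60 in sensing and transport and 110 in fatty acid enzymes. None were counted in 8 members (Fdps, Idi1, Mvk, Mvd, Nsdhl, Acat2, Acss2 and Fads1), and a count of 0 in 85433 allows up to 35.1 CPM. This includes 3 of the 4 members whose RNA fell. Without a filter, edgeR tested 27 members and called none, with 1 at an unadjusted p under 0.05 for footprints and 1 for efficiency. DESeq2 called none, with 0 and 2. For footprints it gave an adjusted p to Fasn alone (0.527), so it could call no other member there.

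Fasn was the member under 0.05 unadjusted in both edgeR tests, with 6, 1 and 4 footprints unstimulated and 11 and 26 stimulated. As shares of the library these were 539, 68.6 and 263 CPM against 528 and 1100 CPM, so the groups overlap and stimulated replicate 3 is highest. Pooled, Fasn had 269 CPM unstimulated (95% exact Poisson interval 134 to 481) and 832 CPM stimulated (586 to 1150), where RNA on library totals had 325 and 401 CPM. These intervals cover counting error only. The log2 change without a filter was 1.82 ± 0.71 for footprints (unadjusted p = 0.0105, adjusted p = 0.763 by edgeR) and 1.52 for efficiency (unadjusted p = 0.0334, adjusted p = 0.582 by edgeR), neither of which passed. By DESeq2 the members under 0.05 unadjusted for efficiency were Fasn (log2 change 1.47, unadjusted p = 0.0254) and Elovl5 (1.90 ± 0.963, unadjusted p = 0.0489, adjusted p = 0.995).

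The other members with at least 10 footprints gave no test that passed either. Srebf1 had 2, 5 and 5 footprints unstimulated and 3 and 3 stimulated, or 293 CPM (151 to 512) and 135 CPM (49.5 to 294) pooled. Srebf2 had 1, 10 and 3 against 4 and 1, or 342 CPM (187 to 574) and 112 CPM (36.5 to 262). Scap had 1, 4 and 2 against 3 and 5, and Hmgcs1 had 2, 8 and 1 against 3 and 1. Ebp had 2, 3 and 3 against 0 and 3. Acly had 4, 8 and 4 against 4 and 5, or 391 CPM (223 to 635) and 202 CPM (92.5 to 384), and Elovl5 had 0, 2 and 2 against 1 and 8. Their pooled intervals overlap between the groups, and single libraries such as unstimulated replicate 2 for Srebf2 and Hmgcs1 or stimulated replicate 3 for Elovl5 hold most of the counts.

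**Figure D4:**
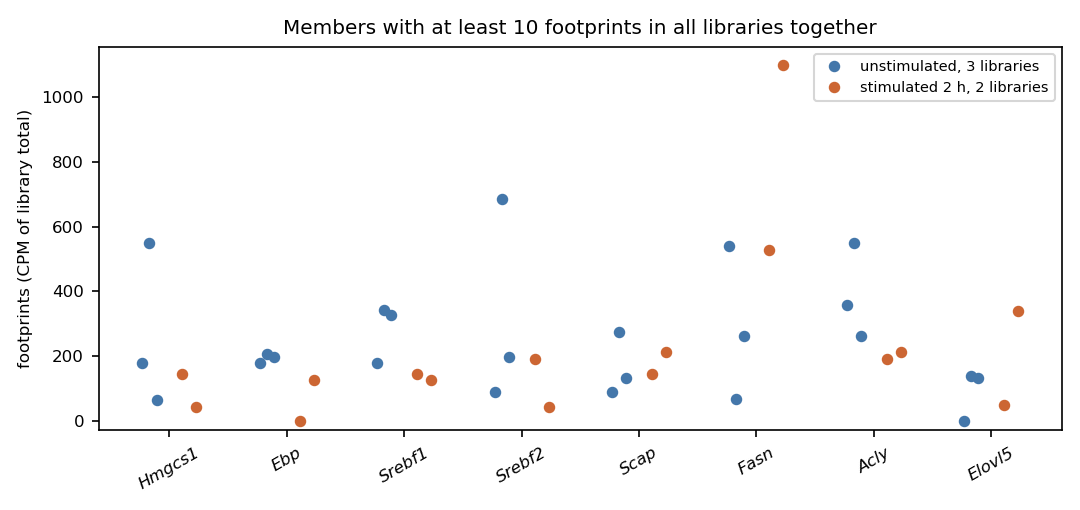
Footprints of the 8 members with at least 10 in all libraries together, in CPM of the library total, by library (blue 3 unstimulated, orange 2 stimulated). Fasn reaches 1100 CPM in 1 stimulated library and 528 CPM in the other, next to 539 CPM in the highest unstimulated one.

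By branch, sterol enzymes held 0.0629, 0.158 and 0.0788% of footprints unstimulated and 0.0719 and 0.0423% stimulated, overlapping groups with a log2 ratio of means of -0.80, and of -0.31 without unstimulated replicate 2. Sensing and transport genes held 0.0449, 0.130 and 0.0919% against 0.0624 and 0.0381%. Fatty acid enzymes held 0.0988, 0.117 and 0.112% against 0.0767 and 0.207%, a log2 ratio of 0.38 that turned to -0.51 without stimulated replicate 3, which held 49 of the 65 stimulated footprints of the branch. Without Fasn the fatty acid shares were 0.0449, 0.110 and 0.0853% against 0.024 and 0.0973%. None of these sums separated the groups.

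Beside the 35 genes, 96 other lipid genes in 5 lists were tested in RNA, of which 3 rose and 9 fell (9.38%) in the fit over all genes, where 3.58% of all genes rose and 4.67% fell. Their median log2 change was -0.08, against 0.391 for all genes, and -0.13 against 0.00367 in the fit on abundant genes. In the fit on abundant genes 20 of 73 passed as higher and 37 as lower, where 36.9% and 36.4% of all genes did. None passed the filter in footprints.

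In the list of sterol control, storage and efflux, 1 of 17 fell, Abcg1, a sterol exporter (log2 change -1.07 ± 0.18, adjusted p = 0.00501). Of 28 other fatty acid synthesis genes, 2 rose and 1 fell. Hacd1, a dehydratase of the elongation cycle, rose from 0.804, 0.992 and 0.931 CPM to 5.25, 6.15 and 6.17 CPM (log2 change 2.68 ± 0.37, adjusted p = 0.00133), with the stimulated library of least background as high as the others. Acsl1, which activates fatty acids, rose by 0.52 ± 0.14 (adjusted p = 0.0462), and Acss1, the mitochondrial counterpart of Acss2, fell by 0.91 ± 0.19 (adjusted p = 0.0134).

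Fatty acid oxidation had 2 of 20 genes that fell and none that rose. Cpt1a, which admits fatty acids to mitochondria, had 81.5, 76.2 and 78.7 CPM unstimulated and 34.3, 41.4 and 55.7 CPM stimulated (log2 change -0.85 ± 0.19, adjusted p = 0.0194), and Acaa2, a thiolase, fell by 0.63 ± 0.17 (adjusted p = 0.0453). In the fit on abundant genes 13 of 18 oxidation genes passed as lower and 2 as higher, where 36.4% and 36.9% of all genes did. Of 21 glycerolipid and droplet genes, 4 fell and 1 rose. Dgat1, which makes triglyceride, fell by 0.89 ± 0.18, Plin3, a droplet coat protein, by 0.70 ± 0.18 and Pcyt1a, of phosphatidylcholine synthesis, by 0.65 ± 0.16, while Agpat5, an acyltransferase, rose by 0.66 ± 0.18 on the log2 scale.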

How the data were processed

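RNA and ribosome footprints were counted in 11 libraries. For each gene the authors deposited the raw count of reads on its coding sequence, not normalized. STAR 2.5 and the build mm10 (GRCm38) are named in the submitters' processing notes. The counting tool, annotation release, use of strand and read filters are not given in the sources used here. Ensembl identifiers were matched to symbols through a reference list of gene identifiers and symbols, which named 21838 of 21957. Gene positions and overlapping spans came from RefSeq, looked up by symbol.

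Each assay was tested with edgeR 4.0.16 (quasi-likelihood F test, two-sided, R 4.3.3) after filterByExpr (at least 10 counts in enough libraries and 15 in total), with TMM scaling and Benjamini-Hochberg adjustment over all genes tested, at 0.05. Efficiency was the interaction over 11 libraries. Scripts were tested on simulated data. Levels are CPM on TMM sizes unless another scale is named, and background sums and footprint levels are CPM of library totals. Pooled footprint levels of single genes have 95% exact Poisson intervals, and a count of 0 is given as up to 3 counts. The fit on genes of at least 10 CPM was an alternative to the filter. Others were RLE scaling, library totals, scaling without 4 genes, no filter, a mean of 50 counts, DESeq2 1.42.0, limma voom (3.58.1), the replicate block, a threshold of 0.01 and each library left out.

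The 35 genes, the other lists and the tests were chosen with earlier results of these data known. Members named with values in every library passed a test, belong to sensing and transport, had at least 10 footprints, or were among the 5 enzymes of a branch with the highest CPM. Coding lengths were not used here, so that CPM only chose names and levels are not compared between genes. Other lipid genes were named where they passed, at most 4 per list. The result of 1 list of them is not reported here. Idi1, Hsd17b7, Elovl1 and other members beyond this rule were named after their values were seen.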

Additional observations from a re-analysis of the deposited data

How the results depend on the processing

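In the fit over all genes, the count of lower members was 4, and of higher members 0. Lower members numbered 7 with RLE scaling, 24 with library totals, 14 with DESeq2, 9 with limma voom and 2 at an adjusted p of 0.01. Of all genes, 1364, 4219, 2559, 1519 and 301 were lower in the same order, out of 18886, or 21427 with DESeq2. Scaling on genes of at least 10 CPM gave 15 lower and 5 higher, where 2928 and 3151 of 18886 genes were. A mean of 50 counts gave 16 and 4, where 2645 and 2287 of 12611 genes were. Genes of at least 10 CPM only gave 17 and 6, where 3090 and 3138 of 8494 genes were. Leaving out 1 library gave 1 to 25 lower and 0 to 1 higher. The count lower was 25 without unstimulated replicate 2 and 23 without stimulated replicate 3, where 6173 of 19219 and 4271 of 19468 of all genes were lower. It was 1 without unstimulated replicate 1 or 3 or stimulated replicate 2, where 478, 344 and 301 of all genes were lower. Leaving out the 3 libraries with the most background, or the 3 with the least, was chosen after seeing the data. Each leaves 1 library in a group, assumed to vary like the other group's, so no counts are given. The median log2 change of all genes was 0.0611 and 0.118 there. The cause of these moves was not tested. Over all genes the same settings called 283 to 6851 higher and 301 to 6173 lower, where the main counts were 677 and 882, and the median log2 change ranged from 0.00367 to 0.498. Fads1 kept its call in 19 of 19 alternatives. Fdft1 lost it in 5, Mvk in 4 of 18 and Acss2 in 3, with adjusted p-values of up to 0.226, 0.3 and 0.132 and log2 changes of -0.90 to -0.48, -1.19 to -0.76 and -1.02 to -0.57, among them without unstimulated replicate 1, without unstimulated replicate 3 and without stimulated replicate 2 for all 3 genes.

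The signs of 7 members that the fit over all genes did not call turned. With RLE scaling the log2 change of Idi1 was -0.011, of Insig1 -0.104, of Insig2 -0.194 and of Elovl1 -0.027. With DESeq2 those of Idi1, Insig1, Insig2, Elovl1 and Hsd17b7 were -0.109, -0.198, -0.287, -0.122 and -0.026. With library totals Insig1 and Insig2 were -0.06 and -0.161, with scaling without the 4 genes -0.0101 and -0.084, and with no filter -0.038 and -0.111. Scap was 0.0322 with scaling on genes of at least 10 CPM, 0.0325 with those genes only and 0.000694 at a mean of 50 counts, and Fads2 was 0.05 with that scaling, 0.0046 at that mean and 8.53e-05 with voom. Leaving out 1 library gave -0.128 to 0.244 for Idi1, -0.22 to 0.098 for Insig1, -0.19 to -0.0313 for Insig2 and -0.116 to 0.209 for Elovl1, below 0 in all 4 without unstimulated replicate 2, for Insig1, Insig2 and Elovl1 without stimulated replicate 3, and for Insig2 with each of the 6 libraries left out in turn. Without the 3 libraries with the most background Idi1 was -0.079 and Insig2 -0.152, and without the 3 with the least Insig2 was -0.196.

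Of the 17 lower and 6 higher members among genes of at least 10 CPM, 13 and 5 passed wherever tested in the 11 alternatives of that fit, chosen after seeing the data, with 15 to 17 lower and 6 higher in each. Of these, 2 leave 1 library in a group, and Idi1, Acat2 and Msmo1 lost their call only there; in the other 9 alternatives 15 and 6 passed wherever tested, and Nsdhl and Pmvk did not. Dhcr7 was not tested without unstimulated replicate 1 or 2, nor Nsdhl without the 3 libraries with the least background. The sterol RNA sum was -0.17 with TMM and -0.15 without the 4 genes, against -0.35. The fatty acid sum was -0.0455 and -0.0313, against -0.23. Leaving out a footprint library moved the fatty acid footprint sum between -0.51 (without stimulated replicate 3) and 0.93 (without stimulated replicate 2). In footprints and efficiency no member was called under any alternative run, most of which tested no member, so depth limits that assay. In the DESeq2 fit of footprints only Fasn had an adjusted p.

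Same-numbered RNA libraries had correlations of deviations of -0.82, 0.66 and 0.84, and not every library correlated best with its own number. The positive correlations joined libraries of like background. Unstimulated replicate 2 went with stimulated replicates 1 and 2 (0.875 and 0.664). Unstimulated replicates 1 and 3 went with stimulated replicate 3 (0.854 and 0.84). Whether replicate numbers pair the samples therefore cannot be told from these correlations. With the replicate block the count was 6 lower and 0 higher, where 1163 and 1232 of 18886 genes were. Among genes of at least 10 CPM it was 17 and 6, where 3108 and 3179 of 8494 were.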
